A study of Mus musculus with 30 samples.

Results

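The basement membrane genes described here are the laminin chain genes Lama1, Lamb1 and Lamc1, the collagen IV genes Col4a1 and Col4a2, Sparc and Nid1, which are 7 of the 54134 gene rows of the count table. They were chosen by their measured difference between genotypes in these same libraries, that is by lower levels in Nr6a1-/- than in wildtype cells. Differences between genotypes in these 7 genes are therefore given as levels and fold changes only, and are not tested. Tests are kept for their changes from stage to stage within a genotype, for their responses to Gdf11, and for whether these changes differed between genotypes. The last of these tests compare differences between genotypes with each other, so they are not independent of the choice of genes. Steps within a genotype use some of the same library values, above all the low Nr6a1-/- levels, so they are not fully independent of it either.

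A basement membrane is the thin sheet of matrix on which an epithelium rests. A laminin molecule joins an alpha, a beta and a gamma chain, here the products of Lama1, Lamb1 and Lamc1, and laminin is the first polymer of the sheet to assemble under the early embryonic epiblast. Collagen IV, built from the chains encoded by Col4a1 and Col4a2, forms a covalently linked network beside it, nidogen (Nid1) links laminin to collagen IV, and Sparc encodes a secreted collagen-binding glycoprotein. In the early embryo these proteins are made in large amounts by primitive and parietal endoderm, and also by the epiblast and its derivatives.

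RNA was measured in 30 libraries of mouse Bruce4 embryonic stem cells (strain label ES-Bruce4) as they differentiated in culture towards neuromesodermal progenitors, the dual-fated progenitors of spinal cord and paraxial mesoderm, with 3 replicates in each of 10 groups. All cells received FGF2. Cells at d2 had FGF2 alone for 48 h, those at d2.5 and d3 had the Wnt agonist CHIR for a further 12 h and 24 h, and d4 cells had FGF2 and CHIR for another 24 h, or the same with the growth factor Gdf11 (d4G). No cells were sampled without CHIR after d2, so an effect of CHIR and of time in culture cannot be told apart. Changes described below as with CHIR are changes over these steps. Each stage was sampled in wildtype and in Nr6a1-/- cells, which lack part of the nuclear receptor gene Nr6a1 and came from 1 clone with a separate deletion in exon 4 of each allele, so that genotype and clone cannot be told apart. The stem cells were kept on feeder fibroblasts, which were depleted before plating on gelatin.

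Library totals ran from 1570714 to 3688197 counts, and a count of 0 in a library allows up to 0.813 to 1.91 CPM, the unit of all levels below, which is counts scaled to the library's total. All 7 genes passed the filter on low counts, in company with 12149 genes in all. Nr6a1 itself was at 82.9 to 184.9 CPM in the wildtype and 87.4 to 311.6 CPM in the Nr6a1-/- libraries from d2 to d3, but reads here come from the 3′ end of transcripts, outside the deleted exon, so its level does not check the labels. Library 2 of wildtype d4 stood apart from the others of its group. The summed level of 4 epiblast markers (Fgf5, Pou5f1, Otx2, Dnmt3b) was 537.3 CPM in it against 72.3 and 69.4 CPM. Some results that use it are also given without it. Among calls for the 7 genes, leaving it out changed those of Col4a1 and Col4a2 from d3 to d4 and of Lama1 with Gdf11, all in wildtype. Library 1 of Nr6a1-/- d4 differed most from the others of its group, with a chi-square per gene of 5.64 and 6.68 against 2.58 between those, and no call for the 7 genes changed without it. The neuromesodermal markers T, Sox2, Cdx2 and Nkx1-2 summed to at least 120.6 CPM at d2, where Sox2 made up most of it (125 CPM in wildtype) and Cdx2, at 1.1 CPM, was within the limit of a count of 0, and to at most 984.3 CPM at d3.

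The 7 genes lie on 6 chromosomes (GRCm38). Lama1 spans chr17:67697259-67822647 on the plus strand, Lamb1 chr12:31265234-31329644 (plus), Lamc1 chr1:153218922-153332786 (minus), Sparc chr11:55394500-55423183 (minus) and Nid1 chr13:13437551-13512269 (plus). Col4a1, at chr8:11198423-11312826 on the minus strand, and Col4a2, at chr8:11312805-11449287 on the plus strand, are read away from each other, and their annotated first exons overlap by 22 bases. Those 22 bases, at chr8:11312805-11312826, are shown on the plus strand because they are the whole of what the annotation places between both starts, with a GC box in capitals.
Col4a1 and Col4a2 shared first bases: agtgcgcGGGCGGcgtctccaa

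Promoter windows from RefSeq (GRCm38.p6) were at hand for 5 of the 7 genes, with 250 bases before each start. The stretches ahead of the first annotated exon of Lamb1 (chr12:31265043-31265233, plus strand) and Nid1 (chr13:13437352-13437550, plus strand) are shown as 2 members with unlike courses, with CCAAT boxes and GC boxes on either strand in capitals.
Lamb1: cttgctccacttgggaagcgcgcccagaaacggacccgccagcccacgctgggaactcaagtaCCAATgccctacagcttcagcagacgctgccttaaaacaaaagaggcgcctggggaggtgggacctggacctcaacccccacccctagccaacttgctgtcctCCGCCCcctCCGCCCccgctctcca
Nid1: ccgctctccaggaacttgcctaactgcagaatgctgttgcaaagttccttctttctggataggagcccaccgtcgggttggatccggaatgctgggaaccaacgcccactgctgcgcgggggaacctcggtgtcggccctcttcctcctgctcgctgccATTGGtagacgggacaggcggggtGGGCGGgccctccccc
The 250-base windows of Lamb1, Nid1, Col4a1 and Col4a2 each held 1 CCAAT box, which 33.8% of all 32851 windows hold, and those of Lamb1 (2), Col4a2 (2) and Nid1 (1) held GC boxes (GGGCGG), as do 32.7% of all windows. The Sparc window held neither. The half-site AGGTCA recognised by nuclear receptors, found in 14.0% of all windows on either strand, was in none of the 5, nor was its extended form TCAAGGTCA (0.387% of windows), the direct repeat AGGTCAAGGTCA that Nr6a1 is known to bind (0.00609%) or the TATA box TATAAA (12.4%). Absence says only that these letters are not within these 250 bases.

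Laminin and collagen IV transcripts were lower in Nr6a1-/- than in wildtype cells through d3, and the genes then parted. Every Nr6a1-/- library lay below every wildtype library for 7 of the 7 genes at d2, d2.5 and d3, for 4 of 7 at d4 and for 5 of 7 at d4G. Over all genes tested this was so for 10.8%, 12.7%, 14.2%, 14% and 12.3% at the 5 stages in turn. Since the genes were chosen for this difference, nothing is read from that comparison. At d4 the libraries of Lama1 and Lamc1 overlapped, those of Lama1 only through library 2 of wildtype d4, and those of Nid1 were higher in Nr6a1-/- cells. At d4G Lamc1 was apart again.

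**Figure D1:**
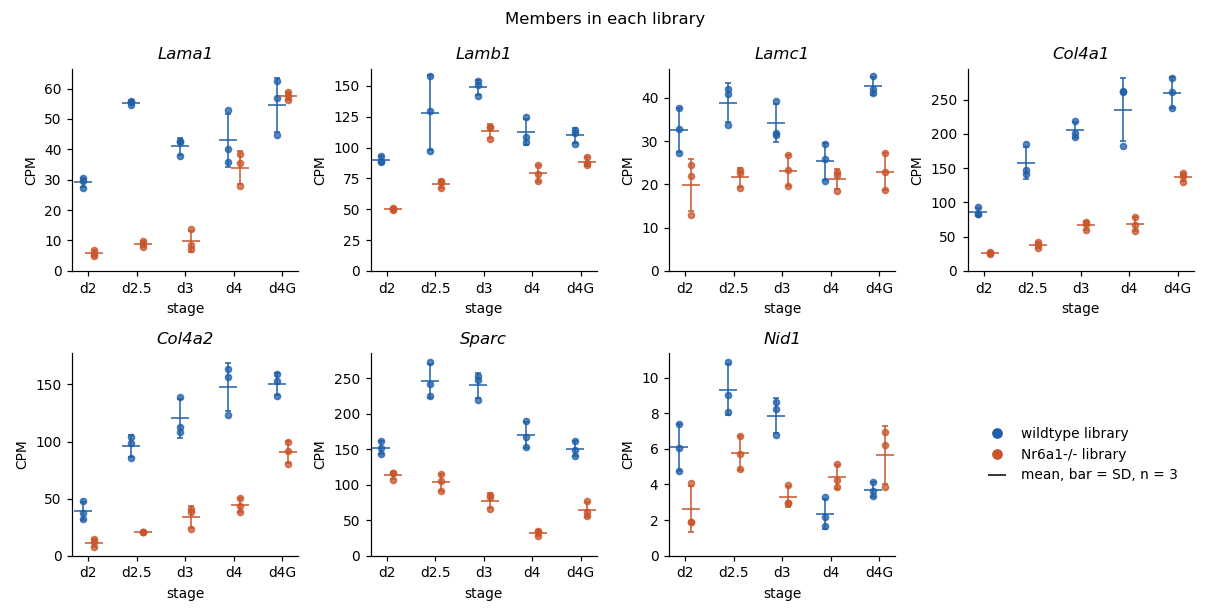
TMM-scaled CPM of each of the 7 genes in all 30 libraries (points), by stage on the horizontal axis, with the mean and SD of the 3 replicates of each group. Wildtype (blue) and Nr6a1-/- libraries (orange) do not overlap for any gene at d2, d2.5 and d3, whereas for Lama1 they overlap at d4 and at d4G. At d4 that overlap rests on library 2 of wildtype.

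Lama1, the alpha chain of the early embryonic laminin, had the widest gap at the early stages. At d2 it was at 27.3, 29.5 and 30.4 CPM in the wildtype libraries and at 5.61, 4.83 and 6.78 CPM in the Nr6a1-/- libraries. At d2.5 the values were 55.8, 55.5 and 54.7 CPM in wildtype and 9.9, 7.99 and 8.88 CPM in Nr6a1-/-, and at d3 they were 42.7, 42.5 and 37.7 CPM and 7.17, 8.49 and 13.7 CPM. Lama1 was thus 5.04-fold, 6.19-fold and 4.12-fold higher in wildtype at these stages, a log2 difference (Nr6a1-/- over wildtype) of -2.33 ± 0.22 (SE), -2.63 ± 0.18 and -2.04 ± 0.19, with no overlap of libraries. At d4 the Nr6a1-/- libraries reached 27.9, 35.6 and 38.5 CPM against 52.8, 35.9 and 40.2 CPM in wildtype, and at d4G 58.7, 56.3 and 57.5 CPM against 62.3, 56.8 and 44.8 CPM. The groups overlapped at both, with log2 differences of -0.32 ± 0.15 and 0.08 ± 0.14. Without library 2 of wildtype d4 (35.9 CPM) the d4 libraries did not overlap, and the log2 difference at d4 was -0.45.

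In Nr6a1-/- cells Lama1 rose from d3 to d4, 3.43-fold (log2 1.78 ± 0.20, FDR 6.76e-09 by edgeR's quasi-likelihood test), where wildtype cells gave 0.05 ± 0.15 (FDR 0.882). The difference between those responses was 1.73 ± 0.25 on the log2 scale (FDR 1.18e-05), and 1.59, FDR 5.8e-05 without library 2 of wildtype d4. In wildtype cells it rose with 12 h of CHIR, 1.9-fold from d2 to d2.5 (log2 0.92 ± 0.16, FDR 2.39e-05), while the same step in Nr6a1-/- cells was 0.63 ± 0.27 and did not pass the test (FDR 0.0899). The change from d2 to d3 did not differ detectably between genotypes (0.29 ± 0.31, FDR 0.75). Gdf11 raised Lama1 in Nr6a1-/- cells (log2 0.76 ± 0.15, FDR 0.000347). The wildtype response of 0.37 ± 0.14 sat at the threshold (FDR 0.0494), and it did not pass without library 2 of wildtype d4 (0.25, FDR 0.259) or library 3 of it (0.33, FDR 0.126), nor without library 1 (0.27, FDR 0.226) or library 2 (0.35, FDR 0.123) of wildtype d4G.

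Lamb1, which encodes the beta chain, differed less between genotypes and followed a like course in both. From d2 through d2.5 to d3 the wildtype libraries held 93.3, 88.0 and 88.8 CPM, then 158, 129.6 and 97.4 CPM, then 142, 154 and 151 CPM. The Nr6a1-/- libraries held 49.5, 50.2 and 50.8 CPM, 72.0, 67.1 and 72.8 CPM and 107, 117 and 116 CPM at those stages. Lamb1 therefore climbed from d2 to d3 in both, always lower in Nr6a1-/- cells, with log2 differences between genotypes of -0.84 ± 0.12, -0.86 ± 0.11 and -0.39 ± 0.11. At d4 it was at 113 ± 10.7 CPM (mean ± SD, n = 3) in wildtype and 79.0 ± 6.68 CPM in Nr6a1-/-, and at d4G at 109.8 ± 6.09 and 88.6 ± 3.52 CPM, still without overlap.

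In both genotypes Lamb1 rose with CHIR from d2 to d2.5 (log2 0.51 ± 0.11, FDR 0.000683 in wildtype, and 0.49 ± 0.12, FDR 0.00242 in Nr6a1-/-), and fell from d3 to d4 (log2 -0.41 ± 0.11, FDR 0.00434 in wildtype, and -0.52 ± 0.11, FDR 0.000544 in Nr6a1-/-). The step from d2.5 to d3 passed the test in Nr6a1-/- cells (0.68 ± 0.11, FDR 2.08e-05) and missed it in wildtype (0.21 ± 0.11, FDR 0.22), where without library 1 of wildtype d2.5 it passed (0.39, FDR 0.0182). Gdf11 gave no call for Lamb1 in either genotype, and none of the differences between genotypes in its responses passed (log2 0.45 ± 0.16, FDR 0.155 from d2 to d3, and -0.11 ± 0.15, FDR 0.762 from d3 to d4).

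Lamc1, the gamma chain shared by most laminins, changed little with stage. It was at 27.3, 32.7 and 37.6 CPM in wildtype and 22.0, 13.0 and 24.5 CPM in Nr6a1-/- libraries at d2, and its 10 group means lay between 19.8 CPM (Nr6a1-/- d2) and 42.7 CPM (wildtype d4G). Log2 differences between genotypes were -0.73 ± 0.18, -0.84 ± 0.18, -0.55 ± 0.18, -0.25 ± 0.19 and -0.92 ± 0.18 from d2 to d4G. The gap at d4, where libraries overlapped (29.4, 25.8 and 20.9 CPM against 18.5, 22.1 and 22.8 CPM), was wider at d4G (42.0, 45.1 and 41.0 CPM against 22.9, 27.2 and 18.7 CPM). Of its 8 stage steps 1 passed the test, the rise with Gdf11 in wildtype cells of 1.7-fold (log2 0.77 ± 0.17, FDR 0.000532). The response of Nr6a1-/- cells was 0.09 ± 0.20 (FDR 0.808), and the difference between them did not pass the test (-0.67 ± 0.26, FDR 0.189). In wildtype the fall from d3 to d4 (-0.44 ± 0.17, FDR 0.0653) passed only without library 1 of wildtype d4 (-0.55, FDR 0.0368) or with library totals as the scaling (-0.48, FDR 0.0469).

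The balance of the laminin chains shifted in Nr6a1-/- cells. Within a library, the log2 ratio of Lama1 to Lamc1 counts was -0.15 ± 0.15 (SD, n = 3) in d2 wildtype and -1.75 ± 0.28 in d2 Nr6a1-/- cells, and 0.27 ± 0.16 and -1.29 ± 0.57 a day later. At d4 it was 0.76 ± 0.25 and 0.68 ± 0.08, and at d4G 0.34 ± 0.22 and 1.34 ± 0.28. Lama1 was thus low relative to Lamc1 in Nr6a1-/- cells up to d3, near the wildtype ratio at d4, and above it at d4G. These ratios compare groups only, since counts of the 2 genes are not on a common scale of length or priming.

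Col4a1 and Col4a2 rose with CHIR in both genotypes, at a lower level in Nr6a1-/- cells at every stage. For Col4a1 the wildtype libraries gave 92.9, 82.8 and 83.0 CPM at d2, then 185, 148 and 141 CPM with 12 h of CHIR, 219, 202 and 196 CPM with 24 h, 263, 182 and 260.4 CPM at d4 and 261, 282 and 238 CPM with Gdf11. The Nr6a1-/- libraries gave 25.7, 24.5 and 27.5 CPM, 37.7, 33.7 and 42.3 CPM, 69.0, 59.4 and 70.9 CPM, 58.0, 78.3 and 67.2 CPM and 130.3, 142 and 139 CPM at the same stages. No Nr6a1-/- library reached a wildtype library of its stage, and the lowest wildtype value at d4 was that of library 2, which stood apart. Log2 differences between genotypes were -1.73 ± 0.15, -2.06 ± 0.14, -1.63 ± 0.13, -1.79 ± 0.12 and -0.93 ± 0.12, and at d4 -1.96 without that library.

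Col4a2 gave 37.3, 48.0 and 32.1 CPM in wildtype and 14.5, 7.81 and 12.0 CPM in Nr6a1-/- libraries at d2, and 98.8, 104 and 85.4 CPM and 20.6, 20.5 and 21.0 CPM at d2.5. At d3 it was at 139, 113 and 108 CPM and 23.1, 38.2 and 41.4 CPM, at d4 at 164, 123 and 156 CPM and 38.3, 43.7 and 50.8 CPM, and at d4G at 139.9, 159 and 153 CPM and 80.2, 99.9 and 92.0 CPM. Both genes of the pair therefore followed the same order of groups, apart from Nr6a1-/- d4 and wildtype d2, which changed places. The log2 differences of Col4a2 between genotypes were -1.77 ± 0.22, -2.21 ± 0.18, -1.81 ± 0.16, -1.73 ± 0.15 and -0.74 ± 0.14. Log2 CPM of the pair correlated at r = 0.98 over the 30 libraries, as a description, since the libraries share stages and genotypes. The log2 ratio of Col4a1 to Col4a2 counts ran from 0.41 to 1.65 over the libraries, with a median of 0.78.

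In wildtype cells the collagen IV pair rose with CHIR. From d2 to d2.5 the change was 1.83-fold for Col4a1 (log2 0.87 ± 0.13, FDR 1.5e-06) and 2.49-fold for Col4a2 (log2 1.32 ± 0.16, FDR 1.09e-07). From d2.5 to d3 Col4a1 rose again (0.38 ± 0.12, FDR 0.0304), a call lost without library 2 (0.35, FDR 0.0987) or 3 (0.31, FDR 0.134) of wildtype d2.5, or library 1 (0.35, FDR 0.102) or 2 (0.40, FDR 0.0538) of wildtype d3. Col4a2 gave 0.32 ± 0.15, FDR 0.165 at this step. From d3 to d4 neither passed (0.19 ± 0.11, FDR 0.249 for Col4a1, and 0.29 ± 0.14, FDR 0.128 for Col4a2), but without library 2 of wildtype d4 both did, at 0.36, FDR 0.0158 for Col4a1 and 0.43, FDR 0.034 for Col4a2.

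Nr6a1-/- cells raised both collagen IV genes at d2.5 and again at d3. From d2 to d2.5 the log2 changes were 0.55 ± 0.16, FDR 0.0117 for Col4a1 and 0.87 ± 0.24, FDR 0.0057 for Col4a2, but without library 2 of Nr6a1-/- d2 neither passed (0.50, FDR 0.0554 for Col4a1, and 0.65, FDR 0.0725 for Col4a2), nor did Col4a1 without library 3 of Nr6a1-/- d2.5 (0.44, FDR 0.0817). From d2.5 to d3 Col4a1 rose by 0.81 ± 0.14, FDR 6.33e-05, and Col4a2 by 0.73 ± 0.19, FDR 0.00749, the latter not without library 3 of Nr6a1-/- d3 (0.57, FDR 0.0754). From d3 to d4 neither passed, at 0.03 ± 0.14, FDR 0.922 for Col4a1 and 0.37 ± 0.18, FDR 0.132 for Col4a2. The change from d2 to d3 did not differ detectably between genotypes (0.11 ± 0.20, FDR 0.875 for Col4a1, and -0.04 ± 0.31, FDR 0.982 for Col4a2).

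Gdf11 raised collagen IV in Nr6a1-/- cells and not detectably in wildtype cells. The rise in Nr6a1-/- cells was 2.02-fold for Col4a1 (log2 1.02 ± 0.13, FDR 1.91e-07) and 2.04-fold for Col4a2 (log2 1.03 ± 0.16, FDR 1.01e-05). Wildtype cells gave 0.15 ± 0.11, FDR 0.333 for Col4a1 and 0.04 ± 0.13, FDR 0.876 for Col4a2. The difference between these responses passed the test for both genes, at 0.87 ± 0.17, FDR 0.00178 for Col4a1 and 0.99 ± 0.21, FDR 0.00412 for Col4a2. Without library 2 of wildtype d4 it was 1.03, FDR 4.38e-05 for Col4a1 and 1.12, FDR 0.00113 for Col4a2. A difference between responses is built from the same differences between genotypes by which the genes were chosen, so these tests are not independent of that choice. Some d4 and d4G libraries carry the same index, so the library pool may also differ between these stages.

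Col4a1 and Col4a2 lie on chromosome 8, whose genes were lower as a group in the Nr6a1-/- clone. The median log2 difference over its 653 tested genes was -0.38, -0.38, -0.37, -0.29 and -0.31 from d2 to d4G, against medians between 0.00 and 0.04 over the other autosomes. Col4a1 lay below this median by 1.36, 1.68, 1.25, 1.50 and 0.61 on the log2 scale at the 5 stages, and Col4a2 by 1.39, 1.83, 1.43, 1.44 and 0.42. On the chromosome, 6 and 2 genes were lower than Col4a1 at the first 2 stages, then 18 and 21, and 60 with Gdf11. The collagen IV pair thus stood far from the middle of its chromosome until d4, and nearer to it at d4G. The pair was chosen for lower levels in these same libraries and the other genes were not. Its low place among them follows in part from that choice, and nothing is read from it. With 1 clone, a change in the chromosome and an effect of Nr6a1 cannot be told apart.

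**Figure D2:**
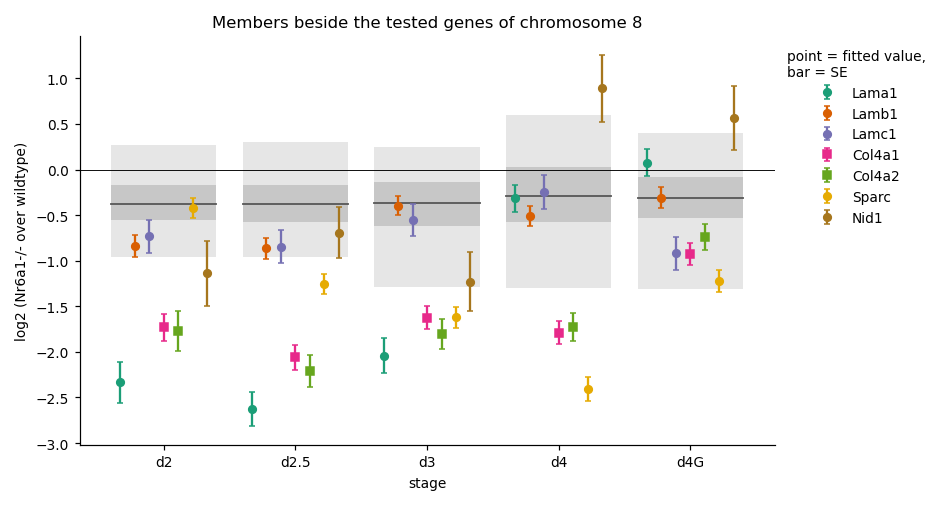
Log2 ratio of Nr6a1-/- over wildtype for each of the 7 genes (points, with SE) at each stage, over grey bands that hold the middle 90% (light) and 50% (dark) of the 653 tested genes of chromosome 8, with their median as a line. The collagen IV pair (squares) lies below the light band at d2 to d4 and inside it at d4G, where Lama1 is at 0.08.

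The nearest tested genes, with 1 exception, did not share the size of the collagen IV difference at d2. Unlike the pair, they were not chosen by their difference between genotypes, so this is a description only. Within 1 Mb of the pair 8 other genes were tested, with a median log2 difference of -0.11, -0.24, -0.26, -0.30 and -0.09 from d2 to d4G. Naxd, which repairs a damaged form of the cofactor NADH and lies on the far side of Col4a2, gave 0.04, -0.25, -0.25, -0.40 and -0.18. Irs2, an adaptor of the insulin receptor on the far side of Col4a1, gave 0.29 and 0.23 at the first 2 stages and -0.76, -1.09 and -0.76 at the last 3. Ing1, Ankrd10 and the predicted gene Gm7600 lay between -0.23 and 0.06 at every stage, Arhgef7 between -0.89 and -0.17, and Cars2 between -1.45 and 0.22. The exception was Sox1, a neural transcription factor gene at the edge of the window, whose fitted value lay below the pair's at d2, d3 and d4. It gave -2.65 ± 0.32 (SE) at d2, with means of 17.7 CPM (wildtype) and 2.80 CPM (Nr6a1-/-). At the next 3 stages it gave -1.36 ± 0.49, -2.50 ± 0.62 and -2.0 ± 0.70, with wildtype means of 3.77, 3.15 and 1.86 CPM. Its Nr6a1-/- means at d3 and d4, 0.51 and 0.44 CPM, were within the limit of a count of 0. Its place beside the pair is therefore not settled at those 2 stages. At d4G Sox1 was at 0.875 CPM in wildtype and had no count in Nr6a1-/- libraries.

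**Figure D3:**
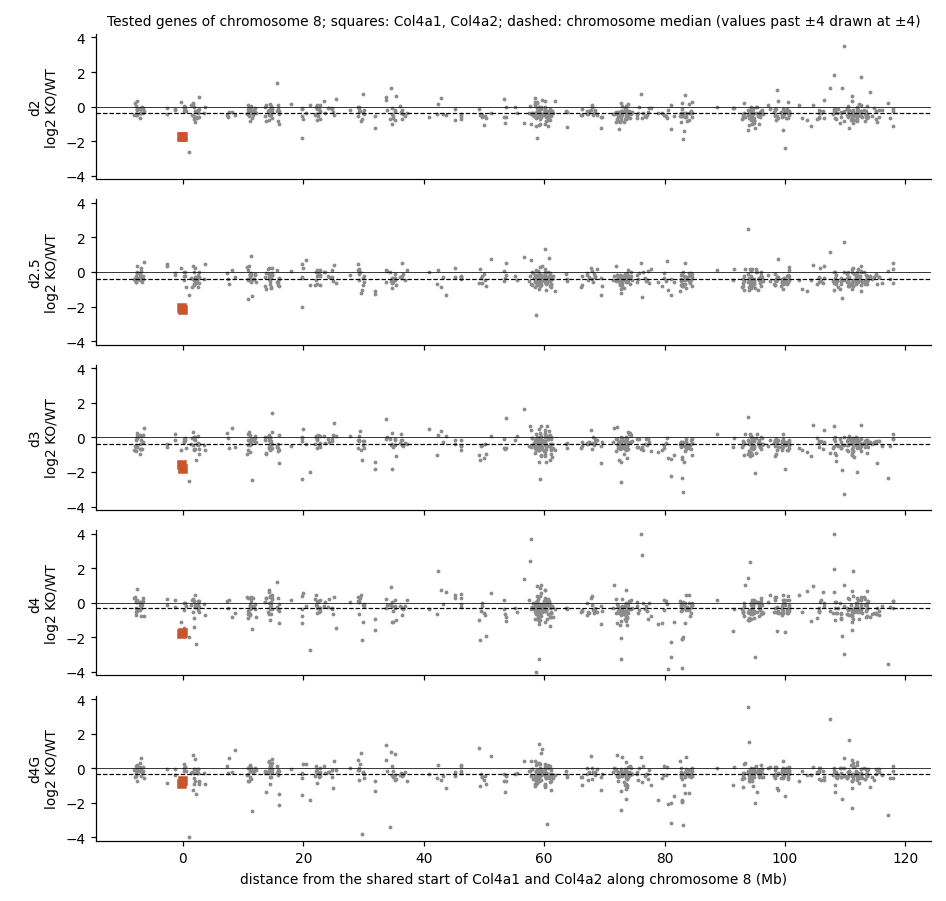
Log2 ratio of Nr6a1-/- over wildtype of the tested genes of chromosome 8 (points) against distance from the shared start of Col4a1 and Col4a2 in Mb, with 1 panel per stage, the chromosome's median dashed and values past 4 drawn at 4. The pair (squares) lies below most genes around it at d2 to d4 and closer to the median at d4G.

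The genotypes grew apart in Sparc from d2 to d4. At d2 it was at 143, 152 and 162 CPM in the wildtype and 107, 117 and 116 CPM in the Nr6a1-/- libraries. At d2.5 the libraries held 273, 225 and 242 CPM and 115, 105 and 91.3 CPM, and at d3 248, 219.6 and 253 CPM and 82.1, 65.4 and 86.0 CPM. Sparc thus went up from d2 in wildtype cells and down in Nr6a1-/- cells, and the libraries never overlapped. At d4 the values were 189.5, 154 and 167 CPM against 33.1, 35.6 and 27.5 CPM, and at d4G 162, 149 and 141 CPM against 61.6, 77.8 and 56.2 CPM. The log2 difference widened from -0.42 ± 0.11 at d2 through -1.25 ± 0.11 and -1.62 ± 0.11 to -2.41 ± 0.13 at d4, where wildtype was 5.3-fold higher, and was -1.22 ± 0.12 at d4G.

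Sparc rose from d2 to d2.5 in wildtype (log2 0.69 ± 0.11, FDR 7.02e-06) and not detectably in Nr6a1-/- cells (-0.13 ± 0.11, FDR 0.426). Over d2 to d3 the difference between genotypes in the change was -1.20 ± 0.16, FDR 6.93e-06. From d3 to d4 Sparc fell in both, with log2 changes of -0.50 ± 0.11, FDR 0.00055 in wildtype and -1.29 ± 0.14, FDR 4.01e-09 in Nr6a1-/- cells, and the falls differed by -0.78 ± 0.18, FDR 0.00418 (-0.87, FDR 0.00257 without library 2 of wildtype d4). In Nr6a1-/- cells Sparc was 2.01-fold higher with Gdf11 than without it on the same day (log2 1.01 ± 0.15, FDR 1.7e-06). The wildtype response was -0.17 ± 0.11, FDR 0.249, a difference of 1.18 ± 0.18, FDR 5.32e-05 (1.26, FDR 3.27e-05 without library 2 of wildtype d4). The Nr6a1-/- mean with Gdf11, 65.2 CPM, was not above that of d3, 77.8 CPM, and their libraries overlapped. The fall from d2.5 to d3 in Nr6a1-/- cells (-0.41 ± 0.12, FDR 0.0139) was not called without library 1 of Nr6a1-/- d2.5 (-0.31, FDR 0.116) or library 2 of Nr6a1-/- d3 (-0.28, FDR 0.144).

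Nid1, which encodes the linker nidogen, had the fewest counts of the 7 genes, 4 to 23 in a library, so that single counts weigh in each value. At d2 its values were 6.08, 7.38 and 4.78 CPM in wildtype and 1.87, 4.09 and 1.88 CPM in Nr6a1-/- libraries, at d2.5 10.9, 8.07 and 9.04 CPM and 5.71, 4.87 and 6.75 CPM, and at d3 8.63, 8.22 and 6.75 CPM and 3.99, 2.97 and 2.95 CPM. At d4 the order turned, with 2.16, 1.65 and 3.28 CPM in wildtype and 5.16, 3.85 and 4.23 CPM in Nr6a1-/- libraries. The log2 difference between genotypes was -1.14 ± 0.35, -0.69 ± 0.28 and -1.23 ± 0.32 at d2, d2.5 and d3, 0.89 ± 0.37 at d4 (0.64 without library 2 of wildtype d4, and -0.091 with every library thinned to the smallest total) and 0.57 ± 0.35 at d4G. In wildtype cells Nid1 fell from d3 to d4 (log2 -1.70 ± 0.33, FDR 0.000174), while Nr6a1-/- cells gave 0.42 ± 0.36, FDR 0.464. The difference of 2.12 ± 0.49, FDR 0.00576 was 1.86, FDR 0.029 without library 2 of wildtype d4, and did not pass after thinning (0.85, FDR 0.53). Its rise from d2 to d2.5 in Nr6a1-/- cells (1.10 ± 0.34, FDR 0.0166) was not called without library 1 (0.91, FDR 0.0832) or 3 (0.88, FDR 0.109) of Nr6a1-/- d2 or library 3 of Nr6a1-/- d2.5 (0.95, FDR 0.0848).

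Calls for the 7 genes are counted here step by step, beside the share of all genes called. Nothing is read from counts of 1 or 2, which lie near such shares. In wildtype cells 5 of 7 rose from d2 to d2.5 (Lama1, Lamb1, Col4a1, Col4a2, Sparc) and none was called lower, where 13.3% of all genes tested were called higher and 12.1% lower. From d2.5 to d3, 1 rose and none was called lower (all genes 5.91% higher and 5.56% lower). From d3 to d4, none was called higher and 3 fell (all genes 9.79% and 11.3%), which became 5 calls, with Col4a1 and Col4a2 higher, without library 2 of wildtype d4. With Gdf11, 2 were higher than without it (Lama1, at the threshold, and Lamc1) and none was called lower (all genes 14.3% and 14.5%).

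In Nr6a1-/- cells 4 of 7 rose from d2 to d2.5 (Lamb1, Col4a1, Col4a2, Nid1) and none was called lower, against 12.9% of all genes called higher and 11.2% lower. That count fell to 2 without library 2 of Nr6a1-/- d2 or library 3 of Nr6a1-/- d2.5. From d2.5 to d3, 3 rose and 1, Sparc, fell (all genes 7.43% and 8.45%). Lama1 alone rose and Lamb1 and Sparc fell from d3 to d4 (all genes 13.6% and 12.3%). With Gdf11 4 of 7 were higher than without it (Lama1, Col4a1, Col4a2, Sparc) and none was called lower (all genes 8.45% and 9.59%). The median log2 change of the 7 was 0.76, against -0.02 over all genes.

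The differences between genotypes in a response that were called are counted here with their background, and nothing is read from the counts, since the genes were chosen on differences between genotypes. For Gdf11 the difference was positive for 3 genes (Col4a1, Col4a2, Sparc) and negative for none, where 1.17% of all genes tested were called positive and 1.49% negative. From d2 to d3 it was negative for Sparc alone (1.19% of all genes positive and 1.09% negative). From d3 to d4 it was positive for Lama1 and Nid1 and negative for Sparc (2.97% positive and 2.75% negative). Adjacent steps share the libraries of the stage between them, so they are not independent of each other.

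**Figure D4:**
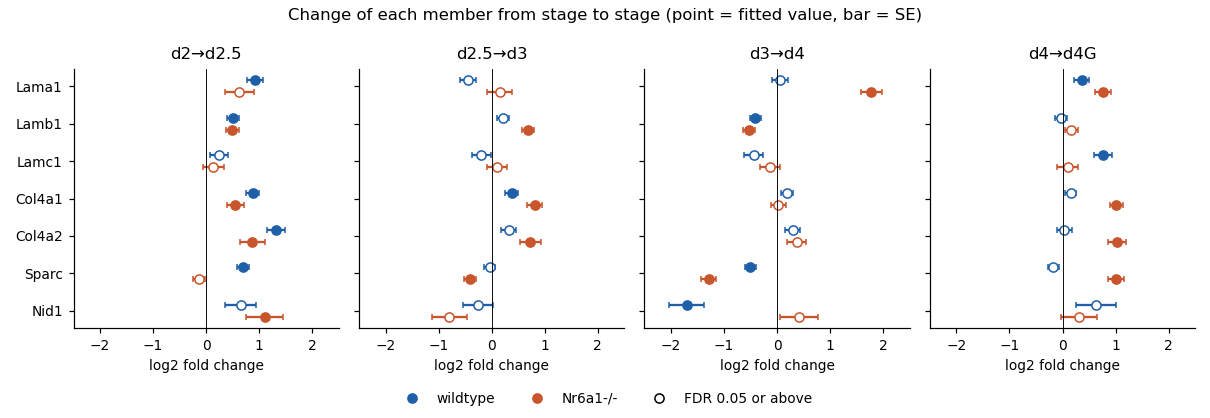
Log2 fold change of each gene from stage to stage (points, with SE), with 1 panel per step, in wildtype (blue) and Nr6a1-/- cells (orange), filled where FDR is below 0.05. Lama1 from d3 to d4 and the collagen IV pair and Sparc from d4 to d4G lie further right in Nr6a1-/- than in wildtype cells.

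Ordered by level over the 10 groups, each gene had its own order. Sparc was highest in wildtype d2.5 (246 ± 24.3 CPM) and wildtype d3 (240.3 ± 18.0 CPM), whose libraries overlapped, and lowest in Nr6a1-/- d4 (32.1 ± 4.14 CPM), apart from the next group. Col4a1 was highest in wildtype d4G, d4 and d3, each overlapping the next, and lowest in Nr6a1-/- d2 (25.9 ± 1.49 CPM). Of the 9 neighbouring pairs in the order, libraries did not overlap in 5 for Col4a1, 4 for Col4a2, 4 for Sparc, 3 for Lama1 and 2 for Lamb1, and they overlapped in 9 of 9 for Lamc1 and Nid1. Lama1 was highest in Nr6a1-/- d4G (57.5 ± 1.23 CPM), and the 3 lowest of its groups were Nr6a1-/- d3, d2.5 and d2.

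Endoderm markers moved with genotype beside these genes. Their summed level over 15 listed markers was 89.2 to 239.7 CPM in the 15 wildtype libraries and 13.4 to 36.6 CPM in the 15 Nr6a1-/- libraries. Of the 11 that were tested, 7, 9, 8, 11 and 9 were called lower in Nr6a1-/- cells at the 5 stages in turn, and none higher. Over all genes tested, 2.72%, 3.59%, 6.29%, 9.17% and 4.63% were called lower, and 1.35%, 2.86%, 4.49%, 9.72% and 3.28% higher. Sox17, an endoderm transcription factor gene, averaged 20.5 CPM in d3 wildtype and 1.24 CPM in d3 Nr6a1-/- cells, and Dab2, an adaptor abundant in primitive endoderm, 38.0 and 6.91 CPM. Among the markers Cer1 had no count in any group, Afp had none in 8 of 10, and Hnf4a had none in Nr6a1-/- cells from d2 to d4. At d4G, where Lama1 was level between genotypes, the endoderm sum was 141.0 to 168.6 CPM in wildtype and 13.4 to 26.6 CPM in Nr6a1-/- cells. The part of these cells in the results for laminin and collagen IV was not tested, and in such bulk libraries fewer cells of a type and less RNA per cell cannot be told apart.

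**Figure D5:**
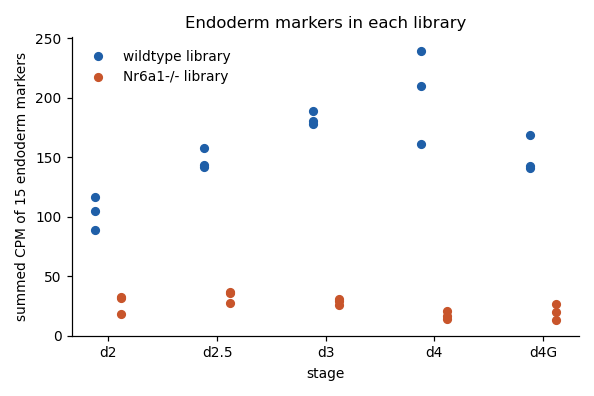
Summed CPM of 15 endoderm markers in each of the 30 libraries (points) by stage. The wildtype libraries (blue) lie between 89.2 and 239.7 CPM and the Nr6a1-/- libraries (orange) between 13.4 and 36.6 CPM.

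Markers of other cell types that such cultures can hold were also summed. A list of 5 markers used for parietal endoderm, the chief producer of basement membrane in the embryo, summed to 25.3 to 259.7 CPM in wildtype and 22.2 to 467.8 CPM in Nr6a1-/- libraries and was led by Fst (178 CPM in d3 wildtype and 386 CPM in d3 Nr6a1-/- cells), which encodes follistatin. Pth1r of that list, a receptor of parathyroid hormone, moved with genotype up to d3, at 9.75, 22.8 and 32.8 CPM on average in wildtype against 4.11, 6.23 and 10.3 CPM in Nr6a1-/- cells, and was at 38.4 and 41.3 CPM at d4. Plat averaged 7.66 CPM in d3 wildtype and 1.33 CPM in the d3 Nr6a1-/- cells, and Thbd had no count in 4 of 10 groups. The part of these markers in the results was not tested either. Markers of feeder fibroblasts (Col1a1, Col1a2, Col3a1, Postn, Lum, Dcn, Thy1) summed to 16.3 to 54.8 CPM in wildtype and 16.9 to 74.3 CPM in Nr6a1-/- libraries over all stages. Within a stage the Nr6a1-/- libraries lay above wildtype at d2 (33.2 to 38.8 against 16.3 to 22.6 CPM), d2.5 (30.8 to 33.0 against 20.1 to 27.0 CPM) and d3 (61.0 to 74.3 against 47.0 to 54.8 CPM). They lay below wildtype at d4 (16.9 to 22.8 against 25.5 to 29.3 CPM) and overlapped it at d4G. Endothelial markers, at 3.22 to 50.1 CPM, included no count of Emcn in 10 of 10 groups.

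Calls among the other basement membrane genes went both ways, more of them lower than higher at each stage. Of 62 genes in 6 lists set by textbook role, 47 passed the filter, and between genotypes 2 were called higher and 3 lower at d2, then 2 and 7, 2 and 12, 6 and 9, and with Gdf11 2 and 9. Over all genes tested, 1.35% were called higher and 2.72% lower at d2, and in the same order 2.86% and 3.59%, 4.49% and 6.29%, 9.72% and 9.17%, and 3.28% and 4.63%. The median log2 difference over the 47 was -0.05, -0.15, -0.24, -0.02 and -0.18 at the 5 stages, against -0.01 to 0.02 over all genes. These counts depended on single libraries: they came to 3 at d2 without library 2 of wildtype or library 3 of Nr6a1-/-, 5 at d2.5 without library 1 of either genotype, 9, 8 and 7 at d3 without library 1 or 2 of wildtype or library 2 of Nr6a1-/-, and 6 and 7 at d4G without library 2 of wildtype or library 3 of Nr6a1-/-. Neither these lists nor the marker lists were sorted by chromosome. For any of their genes on chromosome 8, a lower level cannot be told apart from that of the chromosome in this clone.

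Genes that fold and export collagen were, where called, nearly all lower in Nr6a1-/- cells. Of 12 tested, 2, 5, 6, 4 and 2 were lower at the 5 stages in turn, and 1 was higher, at d4. Over all genes tested, 2.72%, 3.59%, 6.29%, 9.17% and 4.63% were called lower, and 9.72% higher at d4. Serpinh1, the collagen-specific chaperone of the endoplasmic reticulum, was lower in Nr6a1-/- cells at d2 (log2 -1.20 ± 0.13, FDR 6.89e-08), d2.5 (-0.69 ± 0.11, FDR 9.54e-05) and d3 (-0.60 ± 0.12, FDR 0.000394), and higher at d4 (0.71 ± 0.11, FDR 6.02e-06). The prolyl hydroxylase subunit gene P4ha1 was lower at d2 (-1.50 ± 0.25, FDR 0.000125), d2.5 (-0.97 ± 0.26, FDR 0.0156) and d3 (-0.80 ± 0.22, FDR 0.0159). P4ha2 was lower at d2.5 (-0.94), d3 (-0.89) and d4 (-0.75), and Colgalt1, a collagen galactosyltransferase, at d2.5 (-1.05), d3 (-0.65) and d4 (-0.49). Plod2, a lysyl hydroxylase, was lower at d3 (-0.73 ± 0.16, FDR 0.00168) and d4G (-0.59 ± 0.16, FDR 0.0148), and Plod3 at d4G (-0.62 ± 0.17, FDR 0.0134). At d4 Crtap, part of the prolyl 3-hydroxylase complex, was lower as well (-0.72 ± 0.19, FDR 0.00662).

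Of the other chains of laminin and collagen IV few were measured. Lama5 and Lamb2 were tested of 8 laminin chains, and Lamb2 was lower in Nr6a1-/- cells at d3 (log2 -0.99 ± 0.31, FDR 0.0353), the single call between genotypes. Lama5, the alpha chain that follows Lama1 in development, rose from d2 to d2.5 in wildtype (0.91 ± 0.16, FDR 4.56e-05) and in Nr6a1-/- cells (0.62 ± 0.15, FDR 0.00189), and fell from d3 to d4 in both (-0.94 ± 0.16, FDR 2.97e-05 in wildtype, and -0.91 ± 0.15, FDR 1.86e-05 in Nr6a1-/-). The X-linked chains Col4a5 and Col4a6, of 4 listed, gave no call between genotypes. Col4a6 was called higher at d2.5 than at d2 in both, from 0 to 11 counts over the 3 libraries in wildtype and from 1 to 27 in Nr6a1-/- cells, so no fold is given, and fell with Gdf11 (log2 -1.65 ± 0.44, FDR 0.00433 in wildtype, and -2.30 ± 0.49, FDR 0.000791 in Nr6a1-/-), where Col4a1 and Col4a2 rose in Nr6a1-/- cells.

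Receptors and other components split by gene. Itgb1, the beta integrin of most laminin and collagen receptors, was lower in Nr6a1-/- cells at d2 (log2 -0.66 ± 0.11, FDR 0.000174), d2.5 (-0.41 ± 0.12, FDR 0.025), d3 (-0.47 ± 0.12, FDR 0.00641) and d4G (-0.58 ± 0.12, FDR 0.000695). Itga1, its collagen-binding alpha partner, was higher at d2 (1.52), d2.5 (1.18), d4 (2.70 ± 0.28, FDR 2.26e-09) and d4G (1.91 ± 0.31, FDR 2.43e-05). Itga3, of a laminin receptor, was lower at d3 (-1.42 ± 0.39, FDR 0.0126), Itgb5 at d4 (-0.76 ± 0.20, FDR 0.00667), and the collagen receptor gene Ddr1 was higher at d2 (0.65 ± 0.18, FDR 0.0276). Among 15 components tested, Tinagl1, a secreted matrix protein, was lower at d2.5 (-1.43), d3 (-2.65 ± 0.51, FDR 0.000456), d4 (-1.31) and d4G (-2.09 ± 0.54, FDR 0.00927). It had 7 counts over the Nr6a1-/- libraries at d3, and 7 at d4G. Frem1, of the Fraser complex with Frem2, was higher at d2.5 (2.94), d4 (1.77) and d3. These rest on few wildtype counts, 4 over the libraries of d2.5, 9 at d4 and 1 at d3, against 45, 23 and 12 in Nr6a1-/- cells. Egflam was lower at d4 (-1.36) and d4G (-1.22), as was Fras1 at d4G (-1.14), while Smoc1 was higher at d4 (0.35).

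Calls between genotypes for collagen XVIII and the matrix turnover genes came at d3 or later. Col18a1, whose product carries heparan sulphate, was lower at d4 (log2 -0.41 ± 0.14, FDR 0.0305) and d4G (-0.62 ± 0.15, FDR 0.00603). Mmp2, a gelatinase that also cleaves collagen IV, was lower, with log2 differences of -1.0 ± 0.19, FDR 0.000303 at d3, -1.11 ± 0.19, FDR 4.17e-05 at d4 and -1.60 ± 0.14, FDR 2.47e-11 with Gdf11, and its activator Mmp14 higher at d3 (0.57) and d4 (0.96). Gdf11 raised Mmp2 in wildtype (2.24 ± 0.13, FDR 1.14e-15) and in Nr6a1-/- cells (1.75 ± 0.19, FDR 4.94e-09). Mmp15 was lower at d4G (-1.44 ± 0.26, FDR 0.000155), Timp1, an inhibitor of these proteases, was lower at d3 (-0.90), and Adamts1 was higher at d4 (0.92).

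With CHIR the wider basement membrane rose in part, in both genotypes. From d2 to d2.5, 17 of the 47 genes were called higher and 4 lower in wildtype (all genes 13.3% and 12.1%), and 11 and 4 in Nr6a1-/- cells (all genes 12.9% and 11.2%). Frem2 rose (3.79 ± 0.26, FDR 6.82e-14 in wildtype, and 3.64 ± 0.23, FDR 1.85e-15 in Nr6a1-/-), with Serpinh1 (1.12 and 1.64) and Hmcn1, a giant extracellular protein (1.54 and 2.56). Itga6, of the main laminin receptor, fell in both (-1.84 ± 0.18, FDR 6.72e-10 in wildtype, and -1.86 ± 0.17, FDR 1.14e-10 in Nr6a1-/-). With Gdf11, 11 were called higher and 4 lower in wildtype (all genes 14.3% and 14.5%), and 7 and 9 in Nr6a1-/- cells (all genes 8.45% and 9.59%).

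The genes whose course over the 30 libraries was most like that of the members lay largely on chromosome 8. To the mean standardised log2 CPM of Col4a1 and Col4a2, the closest were Slc25a4 (Pearson's r = 0.92), Arl2bp (0.92), Hsbp1 (0.92) and Arhgap10 (0.92), which are on chromosome 8, and Lgmn (0.91) on chromosome 12. To that of the 5 members on other chromosomes, the closest were Afg3l1 (0.88), Atp6v0d1 (0.88), Vps35 (0.88) and Ndufb7 (0.86), all on chromosome 8, and Srgn (0.86) on chromosome 10. The libraries share stages and genotypes, and genotype is also what sets chromosome 8 apart, so these values are descriptions only.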

How the data were processed

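RNA was measured by the authors in 30 libraries that read the 3′ ends of polyadenylated transcripts, indexed and tagged with molecular identifiers during poly(A) priming. Per the labels reads were aligned with STAR to mm10; collapsing of identifiers, strand, counter and annotation are not given in the sources used here. The values used are the deposited counts of each gene in each library, whole numbers with no normalisation. Where identifiers were kept uncollapsed these contain amplified copies, so limits from a count of 0 cover counting error alone. Tables deposited by the authors from their own comparisons between genotypes (log2 fold changes, p-values, CPM) were not used. Replicates A, B and C of the labels are called libraries 1, 2 and 3, 0 columns were unmatched, and nothing in the labels says that they are separate cultures, so that p-values may measure technical spread. In the labels each wildtype d4 library has the index of the same-numbered wildtype d4G library. Library 1 of Nr6a1-/- d4 shares its index with that of Nr6a1-/- d4G, and libraries 2 and 3 share theirs with those of Nr6a1-/- d3. Pools are not given, so a difference of pool cannot be told apart from the steps d3 to d4 and d4 to d4G.

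A gene was kept if 2 or more libraries of a group had over 10 counts and over 2 CPM, which held for 12149 genes. TMM factors gave the scaling, and edgeR 4.0.16 (under R 4.3.3) fitted all 10 groups at once, leaving 20 residual degrees of freedom. Contrasts were tested 2-sided with glmQLFit and glmQLFTest, and called at a Benjamini-Hochberg FDR below 0.05 over all 12149 genes. To obtain the SE, the log2 fold change was divided by the square root of its F statistic. Printed CPM used TMM-scaled totals and no prior count, and correlations use log2 CPM with a prior count of 2. Positions are those of GENCODE mouse release M21 (GRCm38), which placed 97.7% of rows by symbol. The scripts were tested on simulated data.

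The 7 genes, the lists and the rules for naming genes were chosen with earlier results of these data known. Genes of the lists were named by a rule of at most 4 of a list in a comparison, the largest called changes. A few further called genes are given beside them. Neighbours are those within 1 Mb. Alternatives were RLE factors (DESeq2's size factors), library totals, no filter, DESeq2 1.42.0, only the libraries compared, chromosome 8 left out of the factors, each library left out, the replicate number as a block, and libraries thinned to the smallest total. Replicate numbers did not pair libraries, and 30 pairs of replicates differed by chi-square values per gene of 1.45 to 6.68, so each counted as a sample.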

Additional observations from a re-analysis of the deposited data

Results flagged for a closer look

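Each of the following differences between genotypes in a response passed edgeR's test of the difference itself. They are built from the same differences between genotypes by which the genes were chosen, and their cause was not tested. For the Gdf11 response (d4 to d4G), Nr6a1-/- minus wildtype was 0.87 for Col4a1, 0.99 for Col4a2 and 1.18 for Sparc on the log2 scale. Each of the 3 Nr6a1-/- libraries with Gdf11 lay above each of those without it for these genes. From d2 to d3 it was -1.20 for Sparc. From d3 to d4 it was 1.73 for Lama1, -0.78 for Sparc and 2.12 for Nid1, the last resting on 5 to 18 counts in each wildtype library.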

How the results depend on the processing

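Of 77 tests of the 7 genes, 33 were called, 25 of them under every alternative, and of the 44 not called 39 were called under none. The number of the 7 genes called changed under these alternatives. With Gdf11 in wildtype, where 2 were called, 1 was called with RLE factors, with no filter, with chromosome 8 left out of totals and factors, with the replicate block, after thinning, with only the libraries compared and by DESeq2 (1 to 2 with a library left out). From d2.5 to d3 in wildtype, where 1 was called, 2 were called after thinning and with only the libraries compared, and 0 to 2 with a library left out. From d2 to d2.5 in Nr6a1-/- cells, where 4 were called, 3 were called with no filter and by DESeq2 (Nid1 lost). Library totals gave 4 in place of 3 from d3 to d4 in wildtype, and thinning gave 2 in place of 3 differences between genotypes in that step. With a library left out the count was 3 to 5 from d3 to d4 in wildtype, 2 to 4 from d2 to d2.5 and 3 to 4 from d2.5 to d3 in Nr6a1-/- cells, and in the other comparisons it did not move. Other basement membrane genes called between genotypes numbered 3 at d2, 9 at d3 and 8 at d4 after thinning, and 8 at d4 with only the libraries compared. With a library left out they numbered 3 to 4 at d2, 5 to 9 at d2.5, 7 to 11 at d3, 10 to 15 at d4 and 6 to 11 at d4G. The count of the 7 genes with no overlap between genotypes was 4 to 5 at d4 and otherwise fixed. The difference of Nid1 between genotypes at d4 turned to -0.091 after thinning. A paired analysis with the replicate block changed no other call of the 7 genes than that of Lama1 with Gdf11 in wildtype (log2 0.37, FDR 0.0510). Same-numbered libraries deviated together with correlations of -0.11 to 0.16, and in 0 of 13 pairs of groups were all 3 over 0.1, so the numbers were not taken as pairs. The depth limits Nid1 above all, at 4 to 23 counts per library.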
